A study of Rattus norvegicus with 12 samples.

Results

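The 3 untreated libraries of rat primary cortical neuroglial cultures are described here by the level of each gene, and they make up 3 of the 12 libraries of the series. They were chosen by their treatment label, control, and are called intact control (IC) replicates 1, 2 and 3. No measured value entered the choice. The cultures were prepared from the cortex of Wistar rat pups (the labels give postnatal day 0 and the study's methods postnatal days 1 to 2), and RNA was taken at 10 days in vitro, at the time point that lay 4 h after additions in the other groups. Those groups of 3 libraries each had received extracellular vesicles of glial progenitor cells (EV, 10 µg/mL), proteins of 3-100 kDa (15 µg/mL) or the total secretome (45 µg/mL). They are used below only for the spread within a group and for values of a few library shares and of the gene Map2. All 4 groups share the culture itself: a coated surface, a serum-free neuronal medium with B-27 supplement, and cytosine arabinoside, an inhibitor of DNA synthesis, given early to hold back dividing glia. The labels do not say whether the 3 IC libraries came from separate cultures or litters. The study's methods state in general that repeats used unrelated cells, and its expression plot takes out an effect of day, but neither source ties a library to a day, so how much of the spread is technical was not tested.

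A cortical neuroglial culture is a mixed system. Excitatory neurons release glutamate, inhibitory neurons release GABA, astrocytes take up both transmitters and supply glutamine, and cells of the oligodendrocyte lineage and microglia may accompany them. Such cultures are used for studies of glutamate toxicity, in which calcium enters neurons through ionotropic glutamate receptors, above all of the NMDA type, and is removed by pumps, exchangers and mitochondria.

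The deposited values are in TPM, a transcript level that is corrected for length and scaled to a sum of 1000000 in each library, so levels of different genes can be set side by side. TPM keeps no read depth, so how many reads lie behind a value is unknown and no interval from counting is given. Of 28111 gene names, 11935 reached 1 TPM in all 3 libraries, 8321 had a mean of at least 10 TPM and 107 a mean of at least 1000 TPM. A further 11628 names, or 41.4%, were listed at 0 in all 3. Rps6, which encodes a core protein of the small ribosomal subunit, was among these, so a listed 0 can be a failed estimate and is not read as absence. Where 3 values follow a gene name, they are TPM in IC replicates 1, 2 and 3, and means carry the SD (n = 3). In RNA from a mixed culture, fewer cells of a type and less RNA per cell cannot be told apart.

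Replicate 2 stood apart from the other libraries, and results that it touches are given with that library named. Ribosomal protein genes took 9.19% of its TPM against 5.59% and 4.37% in replicates 1 and 3. Its mitochondrial share was 7.70% against 12.4% and 11.5%. In the 9 treated libraries the ribosomal protein share lay between 4.87% and 8.41% and the mitochondrial share between 9.45% and 14.4%, so replicate 2 was outside both ranges, and replicate 3 lay below the first. For Map2, a neuronal gene, replicate 2 (139 TPM) was within the treated range of 136 to 305 TPM, and EV replicate 1 held the lowest of these values, 136 TPM, with a ribosomal protein share of 8.41% and a mitochondrial share of 9.54%. Among the 8321 genes with a mean of at least 10 TPM, 44.5% were highest and 39.6% lowest in replicate 2, and counts of genes that were extreme in that library are set beside these shares.

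Neuronal transcripts were abundant in all 3 libraries. All 16 members of the pan-neuronal list were at 1 TPM or more in every library, and their summed level was 8323, 8784 and 7507 TPM. Tubb3, the neuronal β tubulin, stood at 1432, 1576 and 1241 TPM. Gap43, a protein of growing axons, had the highest mean of the list, 1469 TPM. Stmn2, a microtubule regulator of growth cones, was at 1468, 1490 and 1345 TPM, a narrow range in which replicate 3 was lowest. Rbfox3, which encodes the nuclear marker NeuN of postmitotic neurons, was at 79.9, 78.3 and 74.5 TPM and was one of the steadiest genes of all lists. Dcx, a microtubule protein of immature and migrating neurons, was at 406, 191 and 404 TPM. Its ratio to Rbfox3 was 5.08, 2.44 and 5.43, so that Dcx exceeded Rbfox3 in every library and did so least in replicate 2. Map2, the dendritic microtubule protein often used to count neurons, showed a similar order with 245, 139 and 296 TPM. Neurofilament genes were low beside these. Nefl, the light chain, stood at 23.1, 19.8 and 22.7 TPM, and Nefh, the heavy chain of mature large axons, at 2.49, 4.04 and 3.21 TPM.

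**Figure D1:**
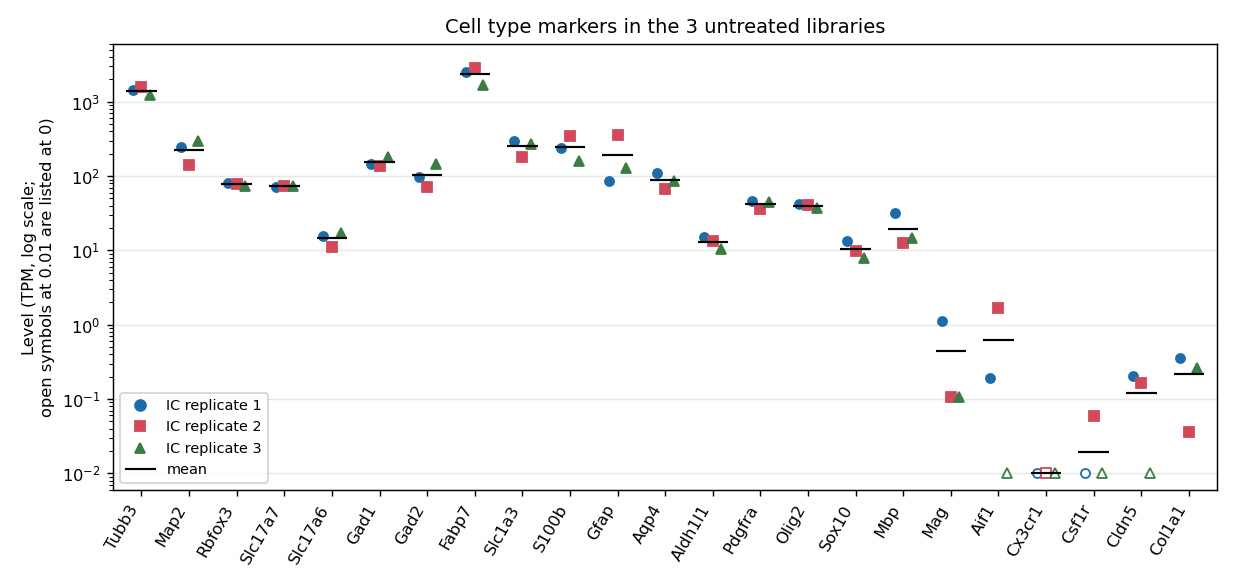
Levels of cell type markers (x axis) in TPM on a log scale (y axis), with 1 symbol for each IC library, a bar at the mean and open symbols for values listed at 0. Tubb3 and Fabp7 lie above 1000 TPM in all 3 libraries, Gfap spreads from 85.1 to 361 TPM, and the microglial, endothelial and fibroblast markers at the right lie at or below 1.7 TPM.

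Genes of forebrain identity were measured in all 3 libraries. Lhx2, a cortical selector gene, was at 112, 117 and 98.8 TPM. The 6 forebrain genes summed to 329, 321 and 320 TPM, which made this one of the steadiest lists, with a highest-to-lowest ratio of 1.03. Of 11 genes that mark the hindbrain and spinal cord, 10 were listed at 0 in all 3 libraries, among them all 8 Hox genes, and En2 was at most 0.10 TPM. These zeros are as listed and are not read as absence.

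Both the glutamatergic and the GABAergic neuron lists were present. Slc17a7, the vesicular glutamate transporter VGLUT1 that loads glutamate into vesicles of cortical neurons, was at 71.4, 73.5 and 73.7 TPM. With a coefficient of variation of 1.74% it had the smallest spread among the listed genes with a mean of at least 10 TPM. Slc17a6, which encodes VGLUT2, typical of thalamic and of young neurons, was at 15.8, 11.2 and 17.4 TPM, and Slc17a8, which encodes VGLUT3, stayed under 1 TPM. Of the summed vesicular glutamate transporter transcripts, Slc17a7 made up 82.9% ± 3.24. Neurod6, a transcription factor of cortical projection neurons, stood at 206, 118 and 151 TPM, lowest in replicate 2.

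Gad1, which encodes the larger of the GABA-synthesising enzymes, was at 144, 138 and 182 TPM, and Gad2, which encodes the synaptic form, at 96.1, 70.4 and 146 TPM. Slc32a1, the vesicular GABA transporter, was at 47.5, 58.0 and 50.9 TPM. Gad1 exceeded Slc17a7 in each library, by 2.02, 1.88 and 2.46 times, a ratio of transcripts and not of cells. Dlx1, a transcription factor of the interneuron lineage, was at 54.1, 111 and 53.9 TPM and was highest in replicate 2.

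The interneuron subclasses were unevenly represented. Cck, a neuropeptide of basket cells and of many pyramidal cells, had the highest mean, with 359, 626 and 272 TPM. Sst, somatostatin, was at 300, 444 and 257 TPM. Calb2, calretinin, was at 207, 229 and 89.8 TPM, and its lowest value was in replicate 3. Vip, a peptide of interneurons that inhibit other interneurons, was near 30 TPM in each library (33.9, 30.5 and 26.8). Pvalb, the calcium-binding protein of fast-spiking cells, which appears late in development, was at 2.03, 1.65 and 0 TPM. Npy, neuropeptide Y, ran from 20.8 and 10.2 TPM to a listed 0 in replicate 3.

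Genes of cortical layers were present for upper and deep layers alike. All 7 upper layer genes with a row and all 8 deep layer genes reached 1 TPM in every library. Mef2c, a transcription factor of maturing neurons, led the upper layer list with 363, 277 and 469 TPM. In the deep layer list Bcl11b, which encodes CTIP2 of corticospinal and striatal neurons, was highest with 41.0, 23.6 and 27.9 TPM, and Fezf2, which specifies corticospinal neurons, stood at 1.87, 2.60 and 2.32 TPM. Genes of striatal projection neurons, a cell type of the neighbouring striatum, summed to 104, 89.1 and 82.8 TPM. Penk, enkephalin, was the highest of them with 36.7, 34.7 and 33.4 TPM, and Drd1, the D1 dopamine receptor, was at 5.89, 1.69 and 2.73 TPM. Whether striatal cells entered the cultures was not tested.

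Astrocyte transcripts were as plentiful as some neuronal ones and more variable. The 16 astrocyte genes summed to 6297, 7644 and 4463 TPM, and 15 of them reached 1 TPM in every library. Fabp7, a fatty acid-binding protein of radial glia and young astrocytes, was at 2490, 2865 and 1675 TPM. Apoe, the lipid carrier that astrocytes secrete, was at 1234, 2175 and 801 TPM. These genes were highest in replicate 2 and lowest in replicate 3. Gfap, the intermediate filament that serves as the classical astrocyte marker, had the largest ratio of highest to lowest value among the members at 1 TPM or more. It stood at 85.1, 361 and 128 TPM, a mean of 191 ± 148 TPM with the highest value 4.25 times the lowest. The ratio of Tubb3 to Gfap was accordingly 16.8, 4.37 and 9.67, so a statement about neurons relative to astrocytes by these classical markers depends on the library. S100b, a calcium-binding protein of astrocytes, was at 241, 344 and 157 TPM. Aldh1l1, the folate enzyme used as a pan-astrocyte marker, was lower and steadier at 14.9, 13.2 and 10.5 TPM.

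Not all astrocyte genes followed Gfap. Slc1a3, the glutamate transporter GLAST, was at 295, 183 and 274 TPM, and Slc1a2, the transporter GLT-1 that dominates in the adult cortex, was at 54.0, 31.6 and 70.5 TPM. Both were lowest in replicate 2, where Gfap was highest. The mean of Slc1a3 was 4.82 times that of Slc1a2. Aqp4, the water channel of astrocyte endfeet, was at 109, 66.6 and 87.2 TPM, and Glul, glutamine synthetase, at 648, 419 and 465 TPM. Of the 15 astrocyte genes with a mean of at least 10 TPM, 8 were highest and 5 lowest in replicate 2, or 53.3% and 33.3%, near the 44.5% and 39.6% of all genes. Gjb6, the connexin 30 of mature astrocytes, did not exceed 0.265 TPM.

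The oligodendrocyte lineage was represented by progenitor genes and by some genes of differentiating cells. The 9 progenitor genes all reached 1 TPM in every library and summed to 455, 331 and 427 TPM. Pdgfra, the growth factor receptor of these progenitors, was at 46.9, 35.8 and 45.4 TPM. Olig2, a transcription factor of the whole lineage, was at 41.7, 40.3 and 37.1 TPM, and Sox10, which drives its differentiation, at 13.5, 9.95 and 7.81 TPM. The largest member, Ptprz1, a receptor phosphatase that astrocytes also express, was at 182, 67.1 and 186 TPM. Genes of differentiating cells were uneven. Cnp, an enzyme of myelinating cells, was at 69.5, 64.1 and 43.8 TPM and Bcas1, of cells beginning to myelinate, at 61.2, 31.5 and 18.6 TPM, levels that lay among those of the progenitor genes. Mbp, myelin basic protein, was at 31.8, 12.7 and 14.5 TPM. Mog, of mature myelin, was at 1.08, 0.730 and 1.04 TPM, and Opalin was listed at 0 in all 3. The 12 genes of differentiating oligodendrocytes summed to 184, 114 and 82.2 TPM and were highest in replicate 1.

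Microglial genes were at the edge of detection. Of 16 genes, 14 stayed under 1 TPM in every library, and Cx3cr1, P2ry12, Trem2, Ptprc and Spi1 were listed at 0 in all 3. Aif1, which encodes the microglial protein IBA1, stood at 0.190, 1.70 and 0 TPM. The list summed to 20.5, 20.4 and 14.9 TPM, and the 14 genes under 1 TPM held little of that sum. Endothelial genes stayed under 1 TPM in all libraries for all 10 members with a row, and so did all 8 genes of meningeal fibroblasts. Of 10 mural cell genes, 6 stayed under 1 TPM and Rgs5, Acta2 and Kcnj8 were listed at 0, while Tagln, a smooth muscle actin-binding protein, reached 29.6, 19.1 and 9.12 TPM.

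Transcripts of dividing cells and progenitors were detected. All 10 cycling genes reached 1 TPM in every library, with sums of 260, 430 and 270 TPM. Top2a, a topoisomerase of replicating cells, was at 26.4, 52.5 and 38.3 TPM, and Mki67, the proliferation antigen, at 9.80, 14.5 and 15.6 TPM. The sum was highest in replicate 2. Sox2, a transcription factor of neural stem cells and glia, was at 79.4, 103 and 57.0 TPM. Eomes, which marks intermediate progenitors of projection neurons, was listed at 0 in replicates 1 and 3 and stood at 0.427 TPM in replicate 2.

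**Figure D2:**
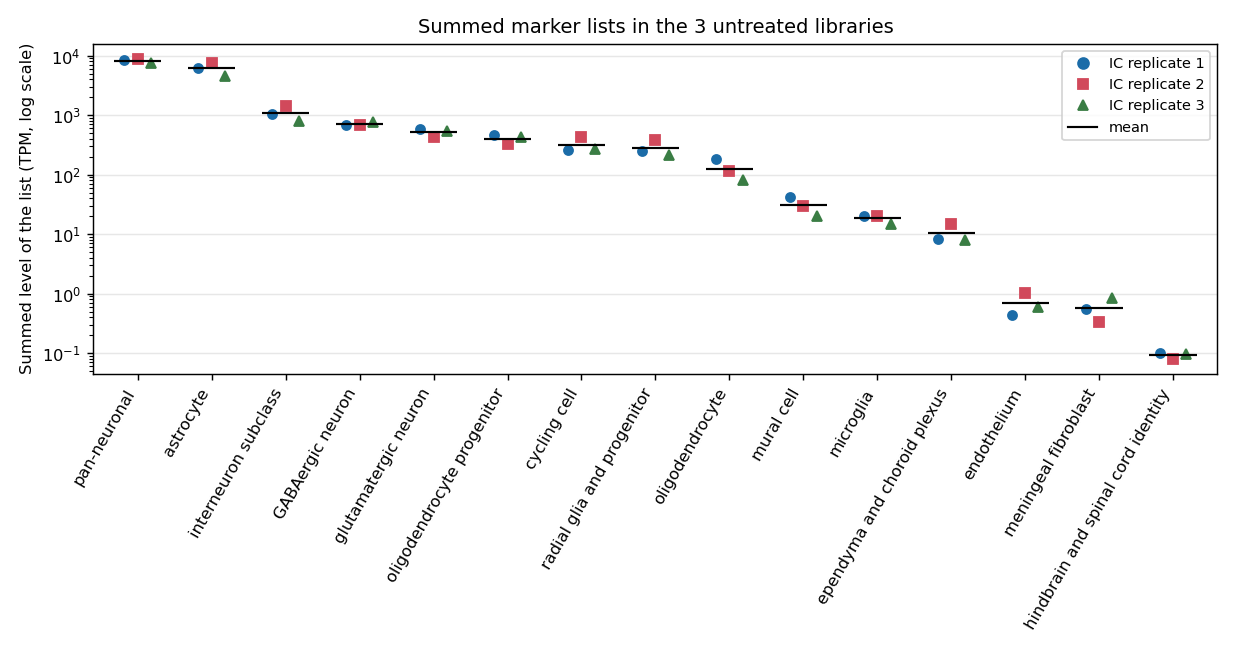
Summed TPM of 15 marker lists (x axis) on a log scale (y axis), with 1 symbol for each IC library and a bar at the mean. The lists fall from a pan-neuronal mean of 8205 TPM and an astrocyte mean of 6135 TPM to 18.6 TPM for microglia and under 1 TPM for endothelium, meningeal fibroblasts and hindbrain genes; lists differ in their number of genes, so heights are not cell shares.

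Among transmitter systems, those of glutamate and GABA had the highest levels outside the neuropeptides. Genes that make, load and recycle glutamate summed to 1096, 754 and 855 TPM, with Glul and Glud1 highest. Genes for GABA synthesis, release and uptake summed to 642, 520 and 715 TPM. Slc6a11, the astrocytic transporter GAT-3, was at 105, 67.1 and 88.2 TPM and was lowest in replicate 2.

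Markers of ascending transmitter systems were close to 0. Of 15 monoamine genes, 12 stayed under 1 TPM, including Th, the rate-limiting enzyme of catecholamine synthesis, at 0.317, 0.515 and 0.613 TPM. Those that did not included the degrading enzymes Maoa (27.6, 18.9 and 25.7 TPM) and Maob (3.26, 5.83 and 3.05 TPM). Chat, which makes acetylcholine, did not exceed 0.120 TPM, whereas Ache, which degrades it, was at 16.6, 10.3 and 9.65 TPM. Receptors for these transmitters were nonetheless measured. Chrnb2, the β2 subunit of neuronal nicotinic receptors, was at 34.6, 31.0 and 31.4 TPM and Chrm1, the M1 muscarinic receptor, at 13.2, 15.7 and 15.8 TPM. Chrna6, Chrna9 and Chrnb3 were listed at 0 in all 3 libraries. Drd2, the D2 dopamine receptor, was at 4.33, 2.48 and 4.48 TPM, and Drd3 and Drd4 were listed at 0. No serotonin receptor gene had a mean of 10 TPM, and the highest by mean were Htr3a, the ion channel subunit of interneurons, at 4.29, 5.95 and 2.94 TPM and Htr1b at 4.99, 3.45 and 4.10 TPM, with overlapping ranges. Adra2a, an inhibitory adrenergic receptor, was near 10 TPM in each library (9.75, 10.1 and 11.2). Cnr1, the cannabinoid receptor on GABAergic terminals, was the highest of the opioid and cannabinoid list with 137, 79.2 and 165 TPM.

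Receptors for glutamate were led by AMPA receptor subunits, the channels of fast excitation. Gria1 (GluA1) stood at 142, 125 and 147 TPM and Gria2 (GluA2), the subunit that makes the channel nearly impermeable to calcium, at 136, 91.3 and 126 TPM. The ranges of Gria1 and Gria2 overlapped, though Gria1 was the higher within each library. Gria4 was at 65.8, 46.2 and 63.5 TPM and Gria3 at 16.2, 12.8 and 19.2 TPM, each below the range of the subunit before it. As shares of AMPA receptor transcripts, Gria1 made up 42.1% ± 3.07, Gria2 35.5% ± 2.29, Gria4 17.6% ± 0.778 and Gria3 4.84% ± 0.475. All 4 were lowest in replicate 2, as were 39.6% of all genes, but their shares moved little.

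NMDA receptors need the obligatory subunit encoded by Grin1 together with GluN2 subunits that set their kinetics. Grin1 was at 75.8, 75.1 and 66.0 TPM, overlapping the range of Grin2b (GluN2B), the subunit of the young forebrain, at 78.0, 66.6 and 105 TPM. Grin2a (GluN2A), which replaces GluN2B at maturing synapses, was at 4.91, 3.03 and 5.76 TPM. The ratio of Grin2b to Grin2a was 15.9, 22.0 and 18.2, or 18.7 ± 3.09. Grin2b thus made up 88.4% ± 1.61 of GluN2 transcripts. Grin2d, an interneuron subunit, made up 5.997% ± 0.704, Grin2a 4.81% ± 0.707 and Grin2c, typical of cerebellum and astrocytes, 0.794% ± 0.579. The ranges of Grin2d and Grin2a overlapped, though Grin2d was the higher within each library. Grin3a was at 7.58, 7.78 and 8.13 TPM, above the range of Grin2d, and Grin3b was under 0.1 TPM.

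Kainate and delta receptor genes all reached 1 TPM, and their sum was steady at 154, 145 and 150 TPM. Grik5, a high-affinity kainate subunit, was highest at 58.5, 65.5 and 53.6 TPM. Metabotropic glutamate receptors, which act through G proteins, summed to 94.1, 53.5 and 106 TPM. Grm5, which raises calcium from stores, stood at 34.6, 18.1 and 44.1 TPM and Grm3, also found on astrocytes, at 28.97, 15.1 and 30.3 TPM. The ranges of Grm5 and Grm3 overlapped, though Grm5 was the higher within each library. Grm6, the retinal receptor, stayed under 1 TPM.

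GABA-A receptors, the chloride channels of fast inhibition, had 12 of 18 subunit genes at 1 TPM or more in all 3 libraries. Among α subunits Gabra5, of extrasynaptic receptors, was at 63.4, 54.6 and 75.0 TPM and Gabra2 at 65.8, 28.0 and 54.4 TPM, with overlapping ranges. Gabra3 was at 35.1, 27.4 and 40.9 TPM. Gabra5 made up 38.6% ± 4.84 of α transcripts, Gabra2 28.4% ± 6.36 and Gabra3 20.5% ± 1.65. Gabrg1, a γ subunit, was at 22.0, 9.18 and 22.9 TPM, lowest in replicate 2. Gabra6, of cerebellar granule cells, and Gabrp were listed at 0 in all 3. All 9 GABA-A genes with a mean of at least 10 TPM were lowest in replicate 2, as were 39.6% of all genes, while Gabbr1, which encodes a GABA-B receptor subunit, was high in each library at 528, 480 and 440 TPM.

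**Figure D3:**
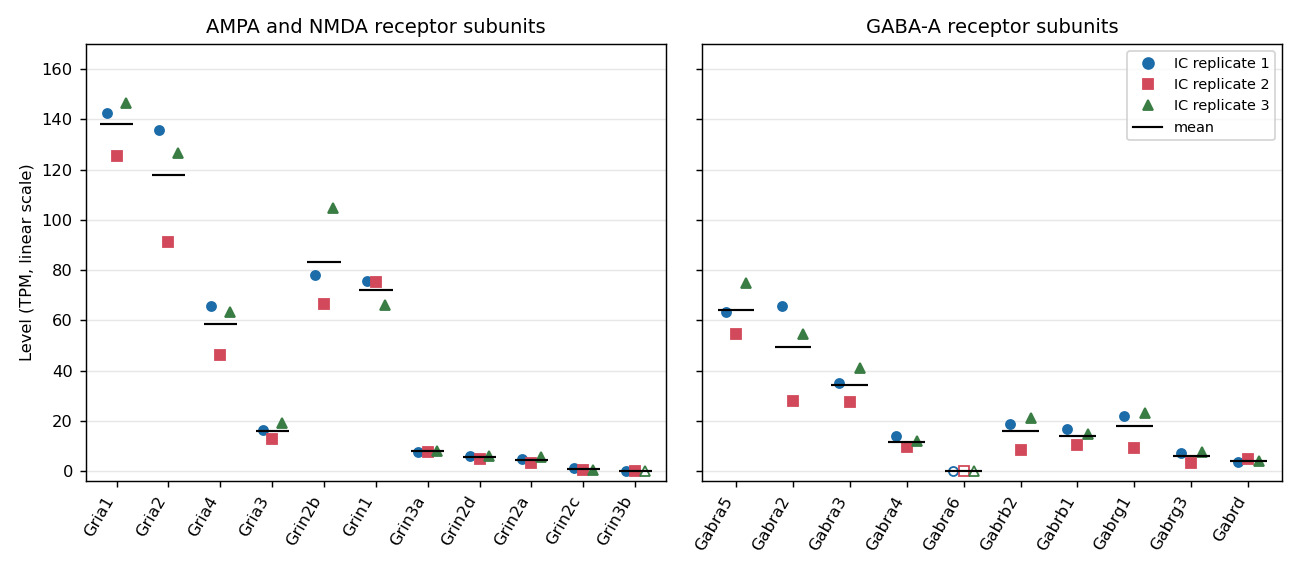
Levels in TPM on a linear scale (y axis) of AMPA and NMDA receptor subunits (left) and GABA-A receptor subunits (right), with 1 symbol for each IC library and a bar at the mean. Grin2b lies far above Grin2a and Gabra5 above Gabra4 in every library, and most subunits are lowest in replicate 2.

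The direction of the GABA response depends on chloride. Slc12a5, the neuronal chloride exporter KCC2, was at 35.2, 25.9 and 35.2 TPM, and Slc12a2, the importer NKCC1, at 15.1, 7.49 and 14.9 TPM. Their ratio was 2.32, 3.46 and 2.36, so the exporter transcript was the higher in each library. Of glycine receptor genes, Glra2, the α subunit of young neurons, was at 30.02, 19.9 and 22.7 TPM and Glrb at 40.0, 25.4 and 44.2 TPM, whereas Glra1, Glra3 and Glra4 stayed under 1 TPM.

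Among the channels of excitability, the pore-forming α subunits of brain sodium channels were led by Scn2a (NaV1.2), the channel of the axon initial segment in young neurons, at 77.9, 64.4 and 93.3 TPM. It made up 60.2% ± 4.53 of the 4 brain α subunits, against 21.2% ± 3.80 for Scn3a, the mainly embryonic channel, 13.5% ± 0.585 for Scn8a and 5.07% ± 1.04 for Scn1a. The auxiliary subunit Scn3b was at 88.0, 77.4 and 79.1 TPM, in the range of Scn2a, and the peripheral channel Scn10a was listed at 0. Of 18 voltage-gated calcium channel genes, 15 reached 1 TPM in every library. The auxiliary subunits Cacnb3 (102, 101 and 80.8 TPM) and Cacna2d1 (93.9, 56.4 and 107 TPM) were higher than any pore subunit, of which Cacna1b, the N-type channel of presynaptic terminals, was highest at 29.4, 17.9 and 26.0 TPM. The potassium channels were many and low. In this list 24 of 25 genes reached 1 TPM in every library, but only 11 had a mean of at least 10 TPM. Kcnq3, a subunit of the M-current channel, was at 36.7, 12 and 40.9 TPM.

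The machinery that removes sodium and calcium was strongly expressed. Sodium pump genes summed to 1405, 1179 and 1421 TPM. Atp1b1, a β subunit of the pump, was at 485, 422 and 590 TPM. Of plasma membrane calcium pumps, Atp2b1 made up 67.8% ± 0.929, at 198, 173 and 196 TPM. Sodium-calcium exchangers, which extrude calcium and can run in reverse, were led by Slc8a1 with 69.2, 36.6 and 84.5 TPM, and Slc8a3 was lowest with 11.4, 9.95 and 15.7 TPM. The endoplasmic reticulum pump Atp2a2 (SERCA2) was at 184, 122.98 and 174 TPM. For mitochondrial calcium uptake, the pore gene Mcu was at 25.1, 28.4 and 29.5 TPM and its regulator Micu2 at 67.2, 70.5 and 65.8 TPM, both steady across the libraries.

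Synaptic genes were complete. All 21 genes of vesicles and release and all 20 postsynaptic genes reached 1 TPM in every library. Vamp2, the vesicle fusion protein, led the first list with a mean of 628 TPM, and Camk2b, a calcium-dependent kinase, the second with 326, 326 and 299 TPM. Dlg4, which encodes the scaffold PSD-95, was at 233, 238 and 211 TPM. Activity-regulated genes were low beside these. Of 17 immediate early genes 10 reached 1 TPM in every library, and Fos, induced by neuronal activity, was at 4.46, 4.05 and 2.24 TPM. Arc stood at 0.622, 0.727 and 1.12 TPM and Npas4, which responds to calcium entry, at 1.11, 0.630 and 0.428 TPM. Jund, which is expressed without stimulation, was the highest of the list at 84.9, 137 and 70.8 TPM.

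Trophic signals and their receptors were unequal. Ptn, pleiotrophin, a growth factor of glia and progenitors, had a mean of 1077 TPM, while Bdnf, brain-derived neurotrophic factor, was at 2.64, 1.33 and 1.09 TPM and Gdnf was listed at 0. Ntrk2, which encodes the BDNF receptor TrkB, was at 204, 171 and 195 TPM. In the PI3K-Akt pathway, a survival pathway downstream of such receptors, 14 of 15 genes reached 1 TPM in every library. Akt1, a kinase at its centre, was at 146, 151 and 131 TPM. Pik3ca made up 60.6% ± 1.41 of class I catalytic subunit transcripts, and Pik3cg, the leukocyte form, 0.648% ± 0.184.

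The most abundant names were not all nuclear genes. The 20 names of highest mean held 28.7%, 21.7% and 35.4% of the TPM of the 3 libraries. Only 3 of them, Tuba1a, Tmsb10 and Tmsb4x, were nuclear genes with a symbol, and 6 were mitochondrial protein genes. The others were ribosomal or small RNA rows, mitochondrial RNA rows and rows named only by a clone or a provisional number. Among the latter, 5 rows lay within 1.97%, 0.527% and 3.87% of each other in the 3 libraries and together held 7.45%, 6.63% and 11.9% of TPM. Whether reads were shared among these rows was not tested, and their single levels are uncertain. Rows without a symbol held 17.6%, 16.4% and 23.6% in all. Ribosomal and small RNA rows held 5.27%, 3.13% and 7.99%.

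Named nuclear genes of highest level were those of the cytoskeleton and of basic growth. Tuba1a, the α tubulin of young neurons, stood at 8502, 9977 and 7333 TPM. Tmsb10 and Tmsb4x, which bind actin monomers, followed with means of 6803 and 6140 TPM, and Stmn1, a microtubule-destabilising protein, with 4290 TPM. Tubb2b, a β tubulin of migrating neurons, made up 43.6% ± 0.440 of β tubulin transcripts, Tubb5 23.0% ± 1.48 and Tubb3 15.5% ± 0.696. The tubulin genes are close copies of each other, so reads may have been divided among them with error. Fabp7 was the highest gene of the glial lists.

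The mitochondrial share was 12.4%, 7.70% and 11.5% of TPM. The 13 protein genes of the mitochondrial genome accounted for 7.79%, 4.52% and 6.86%, and the ribosomal and transfer RNA rows of that genome for 4.61%, 3.18% and 4.60%. Mt-atp8, a short ATP synthase subunit, had the highest mean and stood at 12315, 4132 and 11170 TPM. Mt-nd6, the protein gene on the opposite strand of that genome, was at 918, 1348 and 1165 TPM and was the one protein gene highest in replicate 2. Of the 13 protein genes, 11, or 84.6%, were lowest in replicate 2, against 39.6% of all genes. The share is of TPM, which divides by length, and not of reads.

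**Figure D4:**
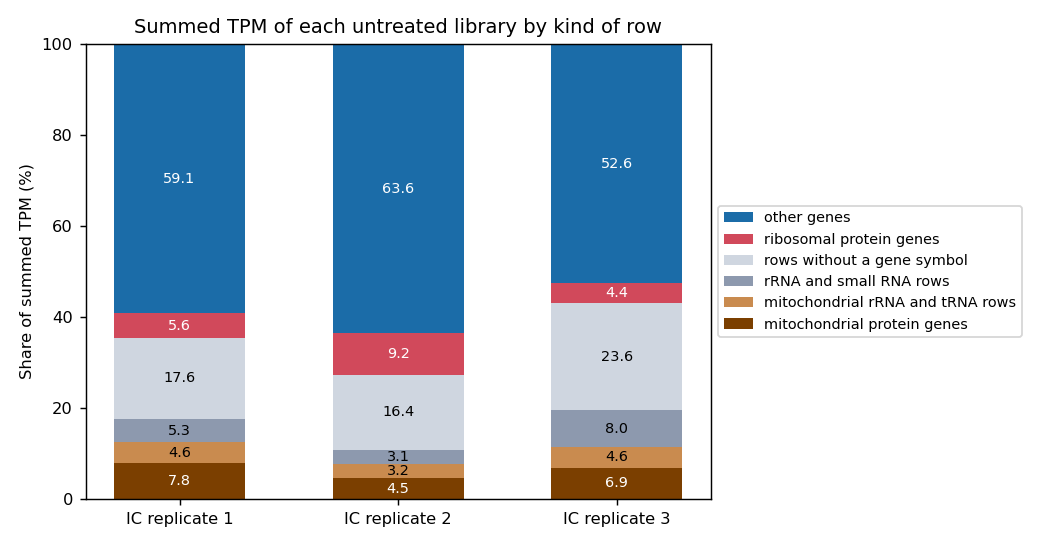
Share of summed TPM (y axis, %) held by 6 kinds of rows in each IC library, as stacked bars that add up to 100%. Replicate 2 has the largest share of ribosomal protein genes, 9.19%, and the smallest mitochondrial shares, and replicate 3 has the largest share of rows without a symbol, 23.6%.

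Replicates 1 and 3 resembled each other most. Across the 8321 genes with a mean of at least 10 TPM, which are not independent replicates, Spearman's rho was 0.961 between replicates 1 and 3, 0.914 between 1 and 2, and 0.878 between 2 and 3. Differences of more than 2-fold were found for 120, 385 and 851 of these genes, or 1.44%, 4.63% and 10.2%. The median SD of log2(TPM + 1) over such genes was 0.26 in IC, 0.27 in EV, 0.22 in the 3-100 kDa proteins group and 0.16 in the total secretome group. Over genes with a mean of at least 1 TPM the median SD in IC was 0.28 with all 3 libraries. It was 0.16 without replicate 2, 0.30 without replicate 1 and 0.25 without replicate 3. An SD over 2 libraries cannot be set against an SD over 3, and no library was left out of the other groups. Whether the place of IC in the order rested on 1 library was therefore not tested. The spread was wide at both ends of the range of levels. The median coefficient of variation was 29.01% for genes between 1 and 10 TPM, 18.4% between 10 and 100 TPM, 18.6% between 100 and 1000 TPM and 30.9% above that. The last bin held 107 names, among them mitochondrial genes, ribosomal protein genes and rows without a symbol. Whether the other genes at that level varied as much was not tested.

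The departure of replicate 2 ran along gene groups. It is given as the median difference of log2(TPM + 1) between that library and the mean of the other 2, which was 0.05 over all 8321 genes. Ribosomal protein genes stood 0.87 higher, radial glia and progenitor genes 0.73 higher and cycling genes 0.70 higher. Astrocyte genes stood 0.49 higher at the median, although their shares of genes highest and lowest there were near those of all genes. Lower values were found for the 13 mitochondrial protein genes (-0.86), the 9 GABA-A receptor genes (-0.84), receptors of all lists together (-0.38), channels (-0.33) and synaptic genes (-0.28). Neuronal lists were unlike each other, at 0.02 for the pan-neuronal, 0.10 for the GABAergic, -0.34 for the upper layer and -0.53 for the glutamatergic list. Of 76 channel genes 50, or 65.8%, were lowest in replicate 2, and so were 36 of 52 receptor genes, or 69.2%, against 39.6% of all genes. Replicate 3 departed too by the same measure, with -0.15 over all genes and -0.68 for ribosomal protein genes. For ribosomal and small RNA rows it stood at 1.16, where replicate 2 stood at -1.12. In replicate 2, receptors and channels thus stood lower at the median, while the ribosomal protein share and Gfap were higher than in the other libraries. Whether these differences are linked was not tested, nor was the part that library quality or composition had in them.

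**Figure D5:**
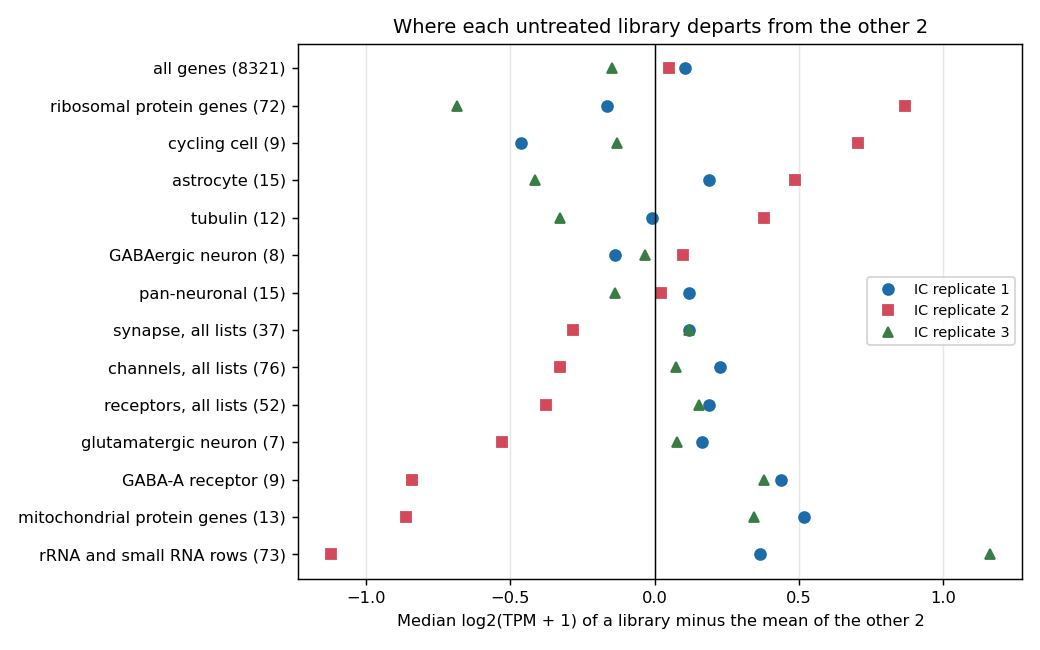
Median difference in log2(TPM + 1) between each IC library and the mean of the other 2 (x axis) for 14 gene sets (y axis, with the number of genes of mean 10 TPM or more in parentheses). Replicate 2 lies at 0.87 for ribosomal protein genes, -0.86 for mitochondrial protein genes and -1.12 for ribosomal and small RNA rows, while over all genes the 3 libraries lie between -0.15 and 0.11.

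Of the 72 ribosomal protein genes with a mean of at least 10 TPM, 69, or 95.8%, were highest in replicate 2, against 44.5% of all genes. Rplp1, an acidic stalk protein, stood at 1386, 2759 and 1026 TPM. Rps27 was at 1544, 2658 and 1050 TPM and Rpl39 at 2343, 3262 and 1858 TPM. These examples were chosen after their values were seen, and the reads of ribosomal protein genes can be shared with processed pseudogenes. Vertebrate ribosomal protein transcripts are known to start within a run of pyrimidines. To show this feature, 30 bases around the RefSeq start (15 before it and 15 from it on, GRCr8, gene strand) are printed for these genes and for Tuba1a, the highest nuclear gene with a symbol. Capitals mark CTTTC or CTTCC.
Rplp1: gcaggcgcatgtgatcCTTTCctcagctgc
Rps27: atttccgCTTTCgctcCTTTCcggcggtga
Rpl39: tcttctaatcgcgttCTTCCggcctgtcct
Tuba1a: gaccgcttaagagtcgcgctgtaagaagca
The windows are chr8:71290858-71290887, chr2:177964592-177964621, chrX:121195882-121195911 and chr7:131995805-131995834, all on the minus strand. Searched on the gene strand only, with overlaps of the motifs counted once, and within 10 bases on either side of the start, either motif was found in 28 of 64 promoters of ribosomal protein genes, or 43.75%, and in 2444 of 33469 promoters of all genes, or 7.30%. Each ribosomal protein gene printed above carried a motif, unlike most of the 64, so the printed examples do not stand for the set. A match is a description of these letters and does not show what set the levels in replicate 2.

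The most variable single names were partly those of the groups above. All of the 20 names with the largest SD of log2(TPM + 1) had a library at 0, and 11 of them were ribosomal or small RNA rows. Among nuclear genes with a symbol that were above 0 in all 3 libraries, Cd151, a membrane tetraspanin, had the largest SD, 1.86. Chchd2, a mitochondrial protein, followed with 31.3, 242 and 102 TPM, and Arap2, a regulator of small GTPases, with 38.4, 5.71 and 27.8 TPM. Gfap was the 10th of these genes, and Mt3, a zinc-binding metallothionein of the brain, at 431, 1049 and 284 TPM, the 19th. Of the 20 genes, 14 were highest in replicate 2, where 44.5% of all genes were highest. At the other end stood Slc17a7, Actb and Rbfox3, each with a coefficient of variation under 4%.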

How the data were processed

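Values were taken from the 3 untreated libraries among 12. According to the study's methods, the authors mapped reads to rn6 transcripts with Salmon (genome decoy) and obtained gene values through tximport. The deposited values name no unit and were taken as TPM, since each library sums to 1000000 and values are not whole numbers. The labels describe a strand-specific DNBSEQ library and the methods poly(A) selection and a NextSeq instrument, and both accounts stand. TPM keeps no depth, so no interval was computed.

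Rows of 1 name were summed with Python 3.11.15, pandas 2.3.3 and numpy 2.4.6, and drawn with matplotlib 3.10.9. Spread is the SD of log2(TPM + 1), tested on simulated data. With 1 group no test was made. Of 687 symbols in 63 lists, 665 matched exactly, 2 by a RefSeq synonym, 2 by an older symbol and 18 had no row. Named genes were the markers, the highest 3 to 5 members of a list, all members of small receptor families, members at 0, the most variable member, and the 20 highest and 20 most variable genes. The text gives a selection of these. Members and lists were chosen with earlier results of these data known. Alternatives were the detection minimum, the pseudocount, row summing, rescaling, removal of RNA rows and leaving out each library. Promoter sequences are from RefSeq (GRCr8). Some listed genes are not reported here.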

Additional observations from a re-analysis of the deposited data

How the results depend on the processing

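No paired analysis was possible because the results come from 1 group and from no test. Over 24 results and 170 alternatives, 159 values stayed within a set limit and 11 did not. The limit was 1 SD over the libraries or, for the spread itself, over the 3 pairs of libraries. For the number of genes detected it was 1.5 times the value reported. Leaving out 1 of 3 libraries moves a mean by less than 1 SD, so for means this alternative could not pass the limit. Without replicate 2, the ratio of mean Tubb3 to mean Gfap rose from 7.40 to 12.5, within the limit. That of Fabp7 to Gfap rose from 12.2 to 19.5, also within it. The number of genes detected, 11935 at 1 TPM or more in all 3 libraries, became 28111 with no minimum, which counts every name. With mitochondrial, ribosomal and small RNA rows removed and the rest rescaled to 1000000, the summed level rose to 9760 TPM for the pan-neuronal list, 485 TPM for oligodendrocyte progenitors and 22.1 TPM for microglia. With rows without a symbol removed too, an alternative chosen after seeing the data, the sums were 12703 TPM (pan-neuronal), 9356 TPM (astrocyte), 636 TPM (oligodendrocyte progenitor), 195 TPM (oligodendrocyte) and 28.7 TPM (microglia). These are gains by construction, since fewer rows share the same total. The median spread between libraries, 0.28 over genes with a mean of at least 1 TPM, was 0.11 with no minimum, where names at 0 enter, and lay between 0.16 and 0.30 with 1 library left out, lowest without replicate 2. The mitochondrial share has no value once its rows are removed. The unknown depth limits what can be said of genes under 1 TPM.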
